A study of Mus musculus with 8 samples.

Results

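The organic anion transporters of the Slco and Slc22 families measured here were Slco1a4, Slco1c1, Slco2a1, Slco2b1, Slco3a1, Slco4a1, Slco5a1, Slc22a6 and Slc22a8. These 9 genes were taken as carriers of organic anions, several of them known to share substrates with MRP4, and their probes were found by the transcript accession that the array design gives each probe. They had 14 probes of the 56605 on the array, and 13 of these, from all 9 genes, were bright enough to be compared among 37085 retained probes. Whole retinas came from mice aged 46 to 55 weeks, in 4 samples labelled homozygous Mrp4 knockout (Mrp4-null) and 4 labelled wild-type. The knockout line had a C57BL/6J background, and each sample was read on 1 one-color Agilent array of a single slide. The methods name tissue from 3 mice, and the sources do not say whether samples were pools or separate animals, so the p-values below measure the spread between these samples, which may be technical. Arrays are named by their label and sample number, and values are quantile-normalized log2 signals of a probe, which compare arrays but not 1 probe with another.

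MRP4, the product of Abcc4, is a pump that uses ATP to export organic anions such as cyclic nucleotides, conjugated steroids and prostaglandins. The Slco genes encode OATPs, which exchange organic anions across the membrane without sodium, and the Slc22 family holds the OATs, which take up organic anions in exchange for dicarboxylates, along with carriers of organic cations and carnitine. In the inner blood-retinal barrier, uptake carriers of both families lie in the vascular endothelium together with efflux pumps, and OATPs are also found in the pigment epithelium.

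None of the 9 genes passed the test between genotypes, in which a probe was called changed at 1.5-fold or more and an adjusted p under 0.05 (limma, Benjamini-Hochberg over all retained probes). Of the 13 probes 0 were called, and the largest difference was 1.37-fold, whereas 202 probes of the whole array were called, which is 0.545%. That total was 131, 129 and 117 when wild-type 2, wild-type 3 or wild-type 4 was left out, while the count for the transporters stayed at 0. At an unadjusted p under 0.05 there was 1 of the 13 probes against 6.46% of all probes. A local pooled error test, the kind the study's methods name, also called 0 at 1.5-fold and an adjusted p under 0.05. The study's methods give a p under 0.05 without naming an adjustment. The signals of the genotypes did not overlap for 1 of the 13, against 4.79% of all. Both of these single probes were the same Slco1c1 probe, and 1 of 13 is near the share among all probes. The 95% interval of the difference lay within 1.5-fold for 8 of the 13 transporter probes and for 77.2% of all probes. For the rest of the 13 a 1.5-fold difference was not excluded, so the count of 0 does not show that they were unchanged. The median size of the difference was 0.08 on the log2 scale both for the transporters and for all probes.

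The arrays differed in ways that bear on these values. The Abcc4 probe read 10.64 to 10.84 on arrays labelled Mrp4-null, against 6.54 to 7.13 on wild-type arrays, a log2 difference of 3.92 (limma adjusted p = 1.36e-05). This is higher where the label names a knockout; the deleted stretch and the probe's place relative to it are not given in the sources used here, so the probe does not check the labels. An Xist probe was well above background on 4 arrays labelled Mrp4-null and on 2 wild-type arrays, and a Y-linked probe on 0 and 3, so sex and genotype label were not balanced. Mrp4-null 2 and wild-type 3 are called the dimmest arrays for their 75th percentile of signal, 678 and 706 against 781 to 1082 on the others. By the median probe the lowest was wild-type 4, with a log2 signal of 5.91 before normalization against 5.92 on wild-type 3 and 5.95 on Mrp4-null 2. All Mrp4-null arrays lay in 1 row of the slide and all wild-type arrays in the other, so row and genotype cannot be told apart. Lists of rod and retinal neuron markers were retained whole, 8 of 8 genes each. By the brightest probe of each gene, the largest differences were 0.24 for Sag among rod markers, 0.24 for Grm6 among neuron markers (without overlap) and -0.51 for Pmel among pigment epithelium markers. They were 0.20 for Hbb-b1 among blood markers and -0.17 for Pdgfrb among pericyte markers well above background on all 8 arrays. Anpep, another pericyte marker, differed by 0.19 but was well above background on 3 arrays labelled Mrp4-null and is not ranked. A dimmer probe of Prkca, a neuron marker, differed by 0.40 without overlap, and its bright probe by 0.02. Of 12 lens genes 9 were retained, with a mean level of 6.17 to 8.75 on arrays labelled Mrp4-null, against 7.62 to 10.19 on wild-type arrays (difference -1.57, exact permutation p = 0.143). All 9 were lower on average and 0 were called, with 4 at an unadjusted limma p under 0.05, among them Bfsp2, a lens filament protein, at -1.38 without overlap. Among lens genes whose brightest probe was well above background on all 8 arrays, Lim2 differed most, by -1.63 (SE 0.81, limma adjusted p = 0.865). Mip, the lens water channel, was well above background on 2 arrays labelled Mrp4-null and 4 wild-type arrays, so it was retained through wild-type alone. Its difference of -2.44 (SE 1.39, limma adjusted p = 0.938) rests in part on values not well above background and is not ranked. Of 7 ciliary body genes 6 were retained, all higher on average, with a mean level of 7.93 to 8.34 against 7.69 to 8.00 (difference 0.34, exact permutation p = 0.0571), but the median difference was 0.06. Both probes of Optc, an extracellular matrix protein of the eye, were higher without overlap, by 1.53 and 0.95. Both probes of Wfdc1 were also higher, by 0.56 without overlap (limma adjusted p = 0.0976) and by 0.38, while Slc4a5 differed by 0.01 and -0.10. Of 6 fibroblast genes 5 were retained, with overlapping mean levels of 7.66 ± 0.13 against 7.49 ± 0.07 (SD, n = 4 each; exact permutation p = 0.0857), but 2 were higher and 3 lower, with Col1a2 at 0.66 and Mgp at 0.53, both without overlap, against Dcn at -0.23. The part of lens, ciliary body and connective tissue in the results below was not tested.

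**Figure D1:**
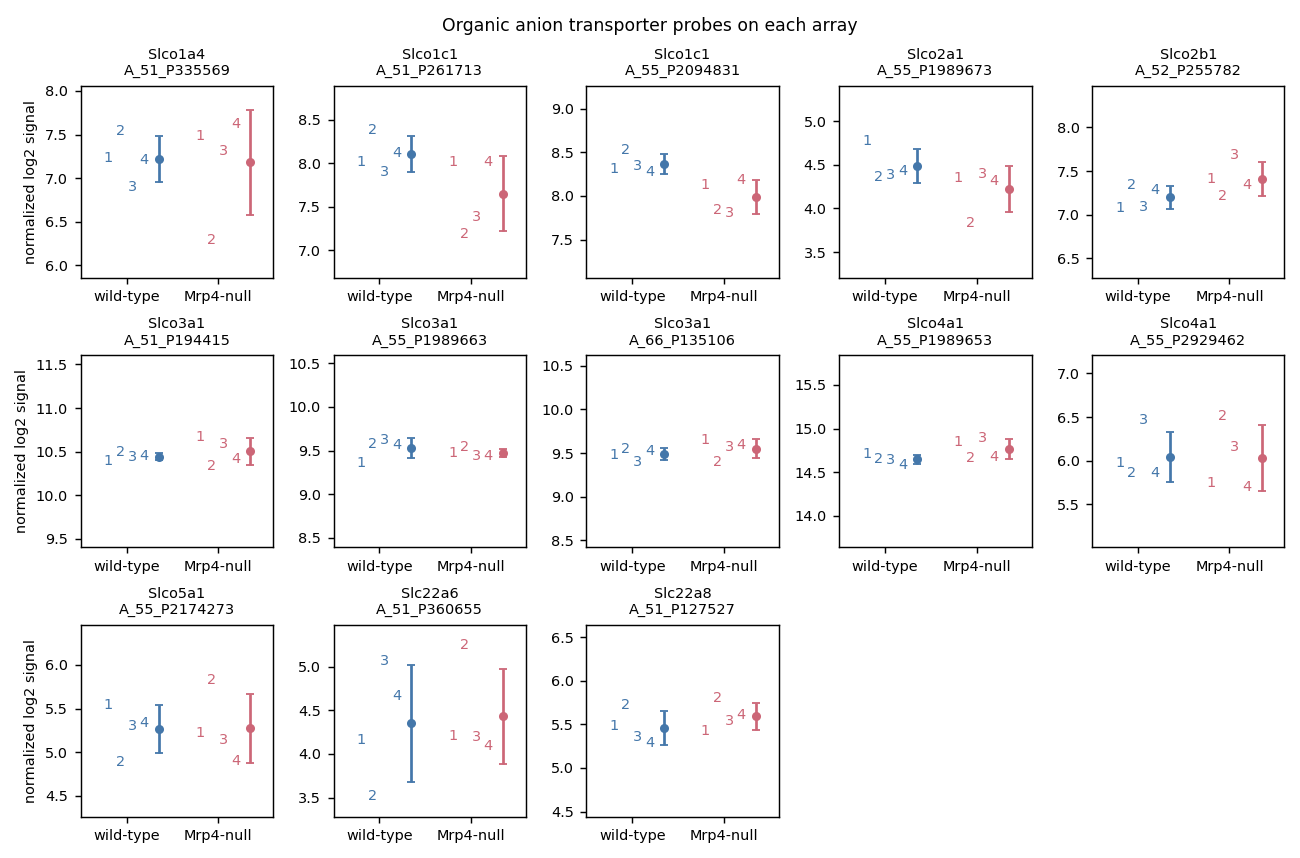
Normalized log2 signal of each of the 13 retained transporter probes, with each array drawn as its sample number, wild-type in blue and Mrp4-null label in red. Dots and bars are the mean and SD of 4 arrays, every panel spans the same range of log2 units, and the second Slco1c1 probe is the 1 panel in which the genotypes do not overlap.

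Slco1c1, on chromosome 6, encodes OATP1C1, the high-affinity thyroxine carrier of brain capillaries. Slco1a4, also on chromosome 6, encodes OATP1A4, which carries bile salts and steroid conjugates and is known from the endothelium of the blood-brain and blood-retinal barriers. The 250 bases before the RefSeq start of each gene are shown because they held the longest stretch shared by any of 41 pairs of transporter promoters. Capitals mark CCAAT boxes, read here on the opposite strand as ATTGG.

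Slco1c1, chr6:141524104-141524353, plus strand, GRCm38.p6: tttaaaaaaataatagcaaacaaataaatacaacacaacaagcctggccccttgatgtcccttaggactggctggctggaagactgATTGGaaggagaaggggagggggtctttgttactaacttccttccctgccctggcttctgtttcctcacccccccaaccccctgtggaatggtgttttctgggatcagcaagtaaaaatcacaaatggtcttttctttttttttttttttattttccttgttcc

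Slco1a4, chr6:141856221-141856470, minus strand, GRCm38.p6: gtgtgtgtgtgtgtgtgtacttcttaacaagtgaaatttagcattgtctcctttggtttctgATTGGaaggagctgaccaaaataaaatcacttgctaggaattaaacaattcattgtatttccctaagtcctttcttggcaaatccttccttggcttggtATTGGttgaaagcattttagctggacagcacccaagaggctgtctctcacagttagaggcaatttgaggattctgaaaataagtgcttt

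The shared stretch was ctgATTGGaaggag, 14 bases long, beginning at -167 from the start of Slco1c1 and at -191 from that of Slco1a4. It occurred in 2 of 32851 RefSeq promoter windows of the same length, those of these 2 genes, and the next longest stretch shared by a pair was 10 bases. A count of at least 2 follows from how the stretch was picked. How often other pairs of windows share a stretch this long was not tested. On either strand, CCAAT was found in 4 of the 10 windows available for 7 of the transporters and in 33.8% of all windows. The TATA box TATAAA was found in 1 of the 10, that of Slco2a1 at -29, and in 12.4% of all windows. The antioxidant response element core TGACNNNGC was in 0 of the 10 and 10.2% of all windows. A match of letters is a description and not a binding site.

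On the Slco1c1 probe A_55_P2094831 the arrays labelled Mrp4-null read 8.13, 7.84, 7.80 and 8.18, and the wild-type arrays read 8.31, 8.53, 8.35 and 8.28. Every Mrp4-null array was below every wild-type array, with the smallest gap between Mrp4-null 4 and wild-type 4. The log2 difference was -0.38 (SE 0.11, 95% interval -0.63 to -0.12, n = 4 and 4), with a limma unadjusted p of 0.00917 and an adjusted p of 0.398. An exact two-sided permutation test over the 70 groupings of the arrays gave p = 0.0286, the smallest it can give. Any probe without overlap gets this p, so it adds nothing to the lack of overlap. For this probe the local pooled error test gave an unadjusted p of 0.147, and limma with the sample number as a block gave 0.0342. Across the 8 alternatives that recompute the levels on all arrays, several of them nearly alike, differences ran from -0.38 to -0.28. The genotypes stayed apart on this probe under all 8. Before normalization they were not apart, since the processed signals were 325, 183, 256 and 318 for the label Mrp4-null, against 345, 430, 261 and 263 for wild-type.

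The other Slco1c1 probe, A_51_P261713, read 8.02, 7.19, 7.38 and 8.02 on the arrays labelled Mrp4-null. On the wild-type arrays it read 8.02, 8.38, 7.90 and 8.11. Here the genotypes overlapped, since Mrp4-null 1 and Mrp4-null 4 lay within the wild-type range and Mrp4-null 2 and Mrp4-null 3 below it. The log2 difference was -0.45 (SE 0.21, 95% interval -0.93 to 0.02), with a limma adjusted p of 0.807 and an exact permutation p of 0.171, and it was -0.30 without Mrp4-null 2. The 2 probes placed the arrays alike, with a correlation of 0.917 over 8 arrays after the genotype means were taken off, which is no independent support since they read the same RNA. Among all retained probes, 3.33% had a larger difference than A_51_P261713 and 5.06% a larger one than A_55_P2094831.

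Slco1a4 read 7.49, 6.30, 7.31 and 7.62 on arrays labelled Mrp4-null, against 7.23, 7.54, 6.89 and 7.21 on wild-type arrays. The lowest values of each genotype were on Mrp4-null 2 and wild-type 3, the dimmest arrays. Its log2 difference was -0.04 (SE 0.28, 95% interval -0.68 to 0.60, limma adjusted p = 1.00), and it turned to 0.26 without Mrp4-null 2, to 0.07 without wild-type 2 and to 0.02 when arrays were aligned by their 75th percentile. The interval reached past 1.5-fold in both directions, and the SD within genotypes was larger than that of 94.0% of all probes, so a difference of that size was not excluded for this gene. Slco1a4 and Slco1c1 correlated at 0.661 over the 8 arrays with genotype means taken off.

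**Figure D2:**
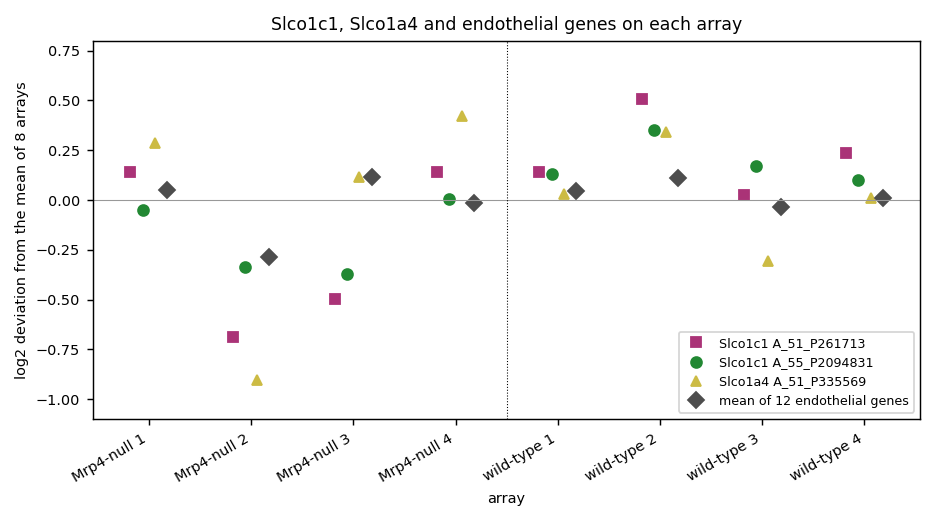
Deviation of both Slco1c1 probes, the Slco1a4 probe and the mean of 12 endothelial marker genes from their own mean over 8 arrays, in log2 units, per array, with the dotted line between the genotypes. Both Slco1c1 probes and Slco1a4 are low on Mrp4-null 2, where the endothelial mean is also lowest, while on Mrp4-null 3 the Slco1c1 probes are low and the endothelial mean is not.

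In whole retina, fewer endothelial cells and less RNA per endothelial cell cannot be told apart. All 12 endothelial markers were retained, and their mean level was 8.56, 8.22, 8.62 and 8.49 on arrays labelled Mrp4-null, against 8.55, 8.62, 8.47 and 8.52 on wild-type arrays. The difference of this mean was -0.07 (exact two-sided permutation p = 0.686), with Mrp4-null 2 lowest. Of the 12, 0 were called changed, and the mean difference was above 0 for 5 and below 0 for 7. At an unadjusted limma p under 0.05 there were 3 of the 12, Cldn5, Emcn and Kdr, all lower on the Mrp4-null label, against 6.46% of all probes. Among those below 0, Emcn, an endothelial sialomucin, differed by -0.41 and Kdr, a receptor for vascular endothelial growth factor, by -0.37 on the log2 scale, with limma adjusted p-values of 0.571 and 0.670. Those furthest above 0 were Tie1, an endothelial receptor, at 0.26 and Vwf, the clotting factor carrier von Willebrand factor, at 0.26 (limma adjusted p = 1.00 each). Relative to the endothelial mean of the same array, a comparison added after the values were seen, Slco1c1 A_55_P2094831 differed by -0.31 without overlap. Its exact permutation p of 0.0286 is that of any probe without overlap. A_51_P261713 differed by -0.39 on this scale (exact permutation p = 0.143). This scale adds the same amount, 0.07, to every difference, and on it 4.29% of all probes did not overlap. The others of the 13 without overlap on it were Slco2b1 and Slco4a1 A_55_P1989653, which were higher by 0.28 and 0.19. Both probes for Aqp4, the water channel of Müller glia, were also lower without overlap on the arrays labelled Mrp4-null, by -0.39 and -0.36 on the log2 scale (limma adjusted p = 0.362 and 0.202), while the mean of 8 Müller markers differed by -0.03, and their part in the Slco1c1 values was not tested.

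Prostaglandins are carried by several of these genes. Slco2a1, on chromosome 9, encodes the prostaglandin transporter, which takes up prostaglandins for their breakdown. Its probe was dim, well above background on 3 arrays labelled Mrp4-null and on 4 wild-type arrays, and read 4.35, 3.84, 4.40 and 4.32 against 4.78, 4.36, 4.38 and 4.43. The low array was Mrp4-null 2, the one not well above background, and the high array was wild-type 1. The remaining arrays lay between 4.32 and 4.43, and the genotypes overlapped. The log2 difference was -0.26 (SE 0.15, 95% interval -0.60 to 0.08, limma adjusted p = 0.945), and it was -0.16 without Mrp4-null 2, -0.15 without wild-type 1 and -0.07 under normexp, another background correction.

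Slco3a1, on chromosome 7, encodes OATP3A1, a widely expressed carrier of prostaglandins and thyroxine, and had 3 probes on 2 RefSeq transcripts. Its probe A_51_P194415 read 10.67, 10.34, 10.59 and 10.41 on arrays labelled Mrp4-null, against 10.40, 10.50, 10.44 and 10.45 on wild-type arrays. The log2 differences of A_51_P194415, A_55_P1989663 and A_66_P135106 were 0.06, -0.06 and 0.06, with limma adjusted p-values of 1.00. Their 95% intervals ran from -0.15 to 0.27, from -0.25 to 0.13 and from -0.13 to 0.25, so all 3 lay within 1.5-fold. Leaving out 1 array moved these small values between 0.00 (without Mrp4-null 1) and 0.12 (without Mrp4-null 2), between -0.11 (without wild-type 1) and -0.03 (without wild-type 3), and between 0.03 (without Mrp4-null 1) and 0.11 (without Mrp4-null 2).

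Slco4a1, on chromosome 2, encodes OATP4A1, a widely expressed carrier of thyroid hormones and prostaglandins, and had 2 probes. The bright probe, A_55_P1989653, read 14.84, 14.66, 14.89 and 14.67 on arrays labelled Mrp4-null, against 14.71, 14.65, 14.64 and 14.59 on wild-type arrays. The SD of the wild-type arrays was 0.05, and the log2 difference of 0.12 (SE 0.08, 95% interval -0.07 to 0.31, limma adjusted p = 1.00) lay within 1.5-fold. It was 0.08 without Mrp4-null 3, the highest array. The dim probe of the gene, A_55_P2929462, read 5.75, 6.51, 6.16 and 5.70 against 5.97, 5.86, 6.46 and 5.86, highest on Mrp4-null 2 and wild-type 3. Its log2 difference of -0.01 (95% interval -0.49 to 0.47) turned to 0.08, 0.10 or 0.13 without Mrp4-null 1, Mrp4-null 4 or wild-type 3, and to 0.05 after alignment by the 75th percentile or another background correction. The 2 probes did not place the arrays alike, with a correlation of -0.12 over 8 arrays and genotype means taken off.

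Slco2b1, on chromosome 7, encodes OATP2B1, a carrier of sulfated steroids and many drugs. It read 7.41, 7.21, 7.68 and 7.34 on arrays labelled Mrp4-null, against 7.08, 7.34, 7.09 and 7.28 on wild-type arrays. Mrp4-null 3 was highest, and the other Mrp4-null arrays overlapped the wild-type range or lay just above it. The log2 difference was 0.21 (SE 0.12, 95% interval -0.06 to 0.48, limma adjusted p = 0.931). The alternatives ran from 0.11 under normexp to 0.28, and without Mrp4-null 3 the difference was 0.12.

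Slco5a1, on chromosome 1, encodes OATP5A1, a member of the family whose substrates are poorly known. Of its 2 probes, A_55_P2617843 was well above background on 1 array of each genotype and was not compared. The other, A_55_P2174273, read 5.22, 5.83, 5.14 and 4.90 on arrays labelled Mrp4-null, against 5.54, 4.89, 5.30 and 5.34 on wild-type arrays. The highest value was on Mrp4-null 2, and the log2 difference of 0.00 (SE 0.21, 95% interval -0.48 to 0.49, limma adjusted p = 1.00) became -0.19 without that array and -0.12 without wild-type 2.

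**Figure D3:**
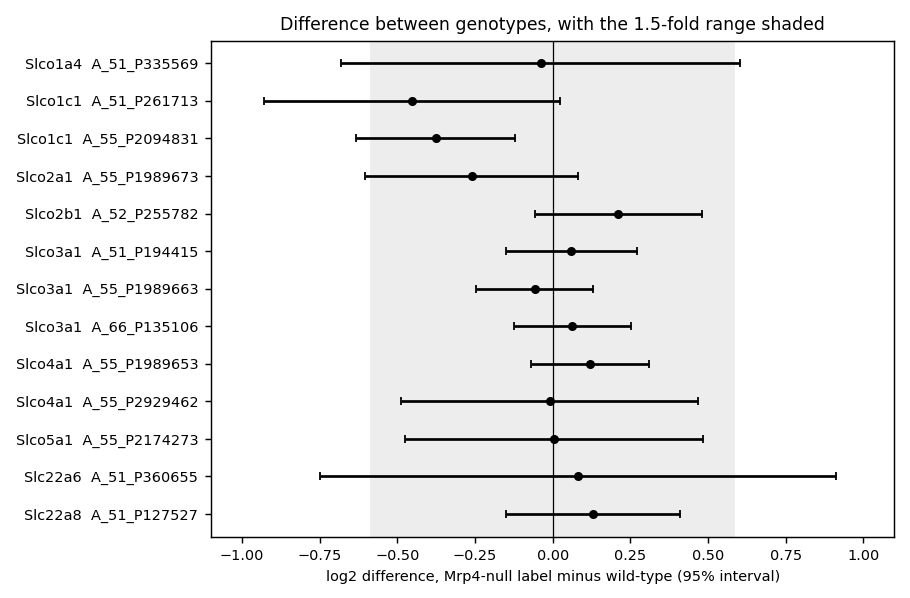
Log2 difference of each retained transporter probe, Mrp4-null label minus wild-type, with its 95% interval from limma, and the range within 1.5-fold shaded. The intervals of 8 of the 13 probes lie inside the shaded range, and 1 interval, that of Slco1c1 A_55_P2094831, does not reach 0.

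The OATs of the set, Slc22a6 and Slc22a8, lie on chromosome 19. They encode OAT1 and OAT3, the carriers through which the kidney takes up drugs and metabolites from blood, and OAT3 is also known from the inner blood-retinal barrier. Slc22a8 read 5.43, 5.80, 5.54 and 5.60 on arrays labelled Mrp4-null, against 5.48, 5.73, 5.35 and 5.28 on wild-type arrays. These ranges overlapped, and the log2 difference was 0.13 (SE 0.12, 95% interval -0.15 to 0.41, limma adjusted p = 1.00), within 1.5-fold. It was 0.22 without wild-type 2, 0.06 without Mrp4-null 2 and 0.07 without wild-type 4, and -0.02 under normexp.

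Slc22a6 was the most scattered of the transporters, at the edge of detection, with signal well above background on 4 arrays labelled Mrp4-null and 3 wild-type arrays. It read 4.20, 5.24, 4.19 and 4.09 on arrays labelled Mrp4-null, against 4.15, 3.52, 5.07 and 4.67 on wild-type arrays. Mrp4-null 2 and wild-type 3 were high, as for the dim Slco4a1 probe, and wild-type 2, the array of highest 75th percentile, was lowest and not well above background. The log2 difference was 0.08 (SE 0.37, 95% interval -0.75 to 0.91, limma adjusted p = 1.00), and it became -0.23 without Mrp4-null 2 and -0.19 without wild-type 2. The SD within genotypes was larger than that of 98.1% of all probes, and a 1.5-fold difference in either direction was not excluded for this gene.

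Some of the transporters deviated in opposite directions on the same arrays, most of all on Mrp4-null 2. On Mrp4-null 2, the dimmest array, Slco1a4 deviated from its own mean over 8 arrays by -0.90 and Slco1c1 A_51_P261713 by -0.69, while Slc22a6 deviated by 0.85, Slco5a1 by 0.56 and Slco4a1 A_55_P2929462 by 0.48. On wild-type 3, the next dimmest, Slc22a6 again deviated upward by 0.67 and Slco1a4 by -0.30. The Slco1c1 probes did not follow Slco1a4 there, at 0.03 and 0.17, and Slco5a1 was at 0.03. On wild-type 2, which had the highest 75th percentile, Slc22a6 deviated by -0.87 and Slco1a4 by 0.34. Over 8 arrays with genotype means taken off, Slco1a4 correlated with Slc22a6 at -0.868 and with Slco5a1 at -0.865, the lowest values among 36 pairs of the transporters. The highest was 0.754, between Slco3a1 and Slco4a1. These are descriptions over arrays that share their brightness, and the part of array brightness in them was not tested.

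**Figure D4:**
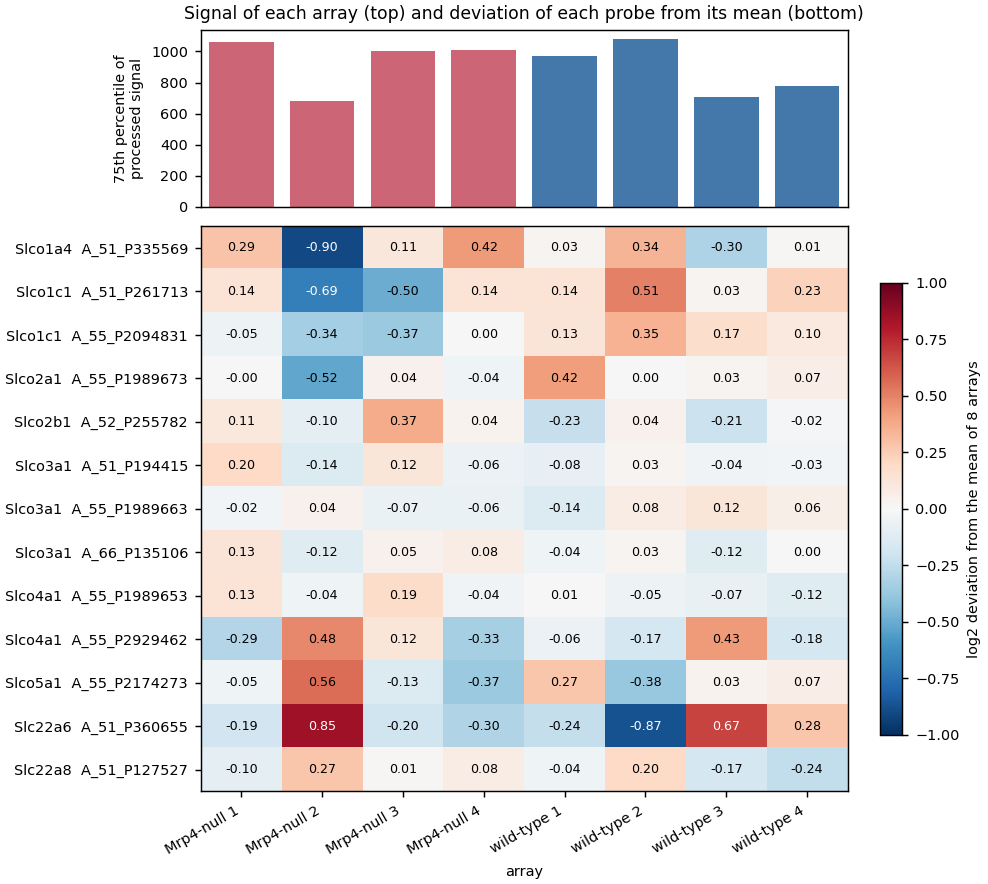
Top, 75th percentile of processed signal on each array; bottom, log2 deviation of each transporter probe from its mean over the 8 arrays, with the value in each cell. The deviations furthest from 0 are -0.90 for Slco1a4 on Mrp4-null 2 and -0.87 for Slc22a6 on wild-type 2, followed by 0.85 for Slc22a6 on Mrp4-null 2.

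By the same measure, taken over named probes of other genes, Slco1a4 was most like A230057D06Rik and Mamdc2 (0.999 each) and Usp7 (0.997). Slco1c1 was most like Zdbf2 (0.977), Wdr5b (0.975) and Col12a1 (0.975). For Slco2b1 the nearest were Samd9l (0.988), Adora3 (0.987) and Traf1 (0.983). The nearest to Slco2a1 were Zmym5, Slc10a1 and Gigyf2 (0.985 to 0.990). Those nearest to Slco5a1 were Galnt14, Klhl1 and Fdx1, to Slc22a6 Zfp872, Fbxw11 and Arl4a, to Slco4a1 Zfp598, Zfand5 and Acaa2, to Slco3a1 Podnl1, Zdhhc12 and Mark2, and to Slc22a8 Mepe, Nrg4 and Aldh9a1. Such values are not particular to these genes, since the best correlation of any retained probe had a median of 0.991 over 8 arrays.

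Of the other 8 Slco genes on the array, 6 were not well above background on any array. These were Slco1a1, Slco1a6, Slco4c1, Slco6b1, Slco6c1 and Slco6d1, and Slco1b2, the liver carrier, was on 1 array. Slco1a5, a neighbor of Slco1a4 on chromosome 6, was the only one retained, with signal well above background on 4 arrays labelled Mrp4-null and 2 wild-type arrays. It read 4.61, 3.99, 4.58 and 4.34 against 4.63, 4.44, 3.63 and 2.31, so the genotypes overlapped and wild-type 4 lay far below the rest. Among the other 23 Slc22 genes, 13 were retained and 8 were not well above background on any array, including Slc22a2, an organic cation transporter of the kidney. Of the retained genes of both families, 0 were called by limma, and 1 had an unadjusted p under 0.05. Among Slc22 probes well above background on all 8 arrays, the largest difference was that of Slc22a29, at 0.46 (SE 0.25, limma adjusted p = 0.918). Slc22a27 was well above background on 4 arrays labelled Mrp4-null and 3 wild-type arrays, and is not ranked with it. Probe A_55_P2728093 of Slc22a30 differed by 0.37 without overlap (SE 0.11, limma unadjusted p = 0.00776, adjusted p = 0.366), while the other probes of that gene differed by 0.06 and -0.02. These 3 genes belong to a group of close relatives on chromosome 19 whose probes may share targets. The carnitine carrier Slc22a5 had probes that differed by 0.05 and 0.01, and the median over the 13 genes was 0.03 against -0.01 over all probes.

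**Figure D5:**
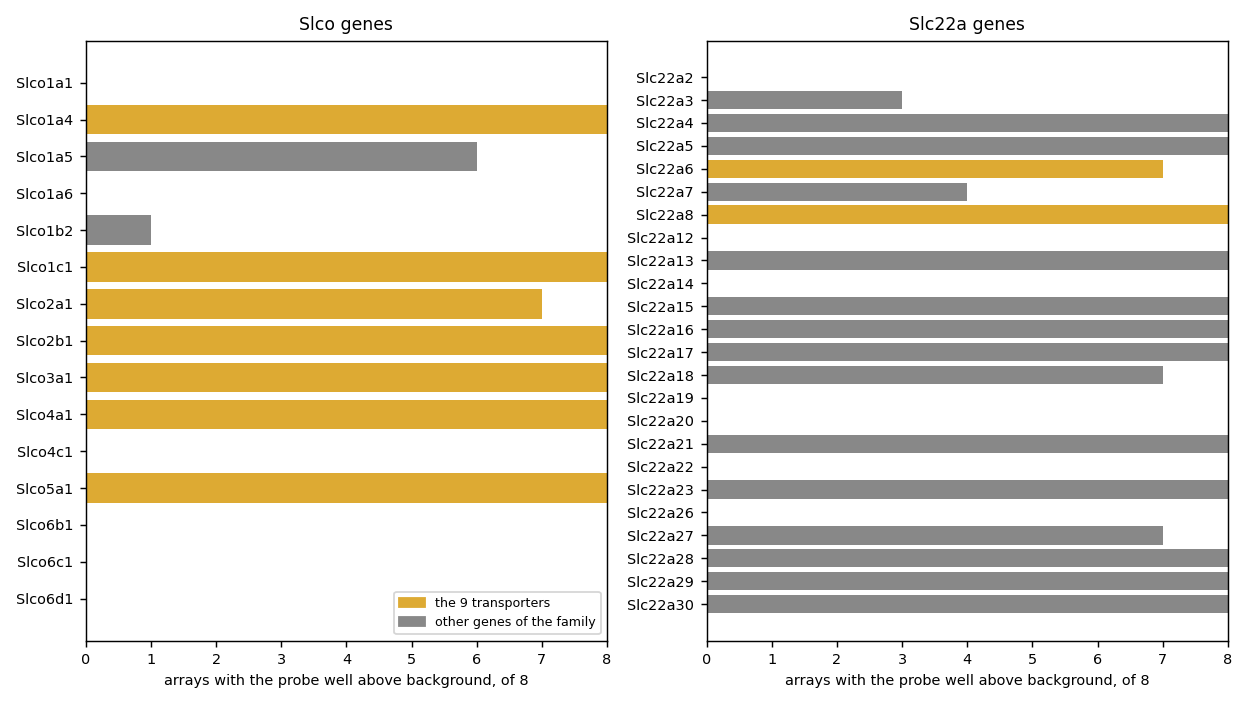
Number of arrays, of 8, on which the best probe of each Slco gene (left) and each Slc22a gene (right) was well above background, with the 9 transporters in yellow and 1 Slc22a gene not drawn. All 9 reach 7 or 8 arrays, whereas 6 other Slco genes and 7 of the other Slc22a genes drawn have none.

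Genes that act with these carriers were read in 3 lists, and limma called 0 of them. On any retained probe, 4 genes had an unadjusted limma p under 0.05. These were 1 of 11 retained thyroid hormone genes, 3 of 9 transport partners and 0 of 7 regulators. Without overlap were 1 of the 11 (Dio3), 1 of the 9 (Slc51b) and 0 of the 7. Dio3 was retained through the Mrp4-null label alone, with wild-type values not all well above background. Over all probes the shares were 6.46% and 4.79%, which count probes and not genes, so they do not compare directly. Of 12 genes of thyroid hormone transport and action 11 were retained, with a median log2 difference of 0.02. Dio3, the deiodinase that inactivates thyroid hormone, read 5.17 ± 0.26 against 4.40 ± 0.46 (SD, n = 4 each) without overlap, a difference of 0.77 (SE 0.23, limma unadjusted p = 0.00917, adjusted p = 0.398). Its probe was well above background on 4 arrays labelled Mrp4-null and 3 wild-type arrays, so it was retained through the label where it was higher. The difference and the lack of overlap thus rest in part on a wild-type value not well above background. Dio2, the deiodinase that activates it, differed by -0.32 (SE 0.24, limma adjusted p = 1.00).

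Among 10 transport partners 9 were retained, with a median of -0.04. Slc13a3, which brings in the dicarboxylates that OATs exchange, differed by 0.34 (SE 0.19, limma adjusted p = 0.926), and Hpgd, which breaks down prostaglandins after uptake, by -0.21 (SE 0.19, limma adjusted p = 1.00). Slc51b, a subunit of an organic solute carrier, differed by 0.33 without overlap (SE 0.12, limma unadjusted p = 0.0225, adjusted p = 0.590). Slc15a2 A_55_P2646129 differed by -0.64 (SE 0.26, limma adjusted p = 0.701), with signal well above background on 3 arrays labelled Mrp4-null and 4 wild-type arrays. It was retained through the wild-type arrays, where it was higher, so this difference rests in part on a value not well above background. The other 3 probes of this peptide carrier gave -0.34 to -0.14. Pdzk1, a scaffold of membrane carriers, was well above background on 4 arrays labelled Mrp4-null and 0 wild-type arrays. It was thus retained only through the label where it was bright. The mean there was at least 1.05-fold higher, taking for each wild-type array the higher of the probe's own signal and the lowest signal well above background. This bound on the means carries no sampling error, so it does not establish an increase. The limma adjusted p of 1.00 compares Pdzk1 with wild-type values that were not well above background.

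Of 10 transcription regulators of these families 7 were retained, with a median of -0.04. Ppara, a lipid-sensing receptor, had the largest difference, with -0.26 on 1 probe and -0.12 on the other (limma adjusted p = 0.933 and 1.00). Nr1i2, the pregnane X receptor, was well above background on 0 of 8 arrays, and Nfe2l2, the regulator of antioxidant genes, differed by -0.05.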

How the data were processed

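Processed signal intensity per spot was deposited by the authors as scanner output of Agilent SurePrint G3 arrays read with Feature Extraction 11.0.1.1, with background already subtracted. Here outlier spots (78 to 143 per array) were left out, spots of 1 probe averaged, and log2 intensity quantile-normalized. A probe was retained where none of its measured arrays in 1 genotype or both failed the software's well-above-background flag. Arrays were compared in limma 3.58.1 (R 4.3.3), with levels of single values tested by exact permutation. A fold change is on the normalized log2 scale. The number of arrays limits the precision. Accessions named 32994 probes (58.3%) through the RefSeq table of GRCm38.p6, which also gave the promoters.

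The members and gene lists were chosen with earlier results of these data known. Every probe of a member is named, and of each list those called and the one differing most by its brightest retained probe, with others named for their role after their values were seen. For a list, that probe stood for each gene. The deposited table of values, the arrays' alignment, background correction, filter, test and each array left out were tried as alternatives. Scripts were tested on simulated data. Values of a few listed genes are not reported here.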

Additional observations from a re-analysis of the deposited data

Results flagged for a closer look

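Among 26 sets of 4 arrays (13 probes, each genotype apart), 3 held an array whose gap to its nearest neighbor, as a share of the range, passed Dixon's 95% limit, and chance alone marks about 1 in 20 sets. Slco2a1 stood apart on wild-type 1, with a gap of 0.840 of the range, and on Mrp4-null 2, with 0.855. Slc22a6 stood apart on Mrp4-null 2, with 0.903. Both probes were dim, Mrp4-null 2 had the lowest 75th percentile of signal though not the lowest median, and the part of array brightness in these values was not tested.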

How the results depend on the processing

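The count of transporter probes called was 0 under every alternative run. Of 258 alternative differences, 39 (other tests and the block) equal the main value by construction. Of the other 219, 200 kept the main direction and 19 reversed, none past the threshold, 3 of them only because the endothelial scale adds 0.07 to every difference. The count over all probes (202) was 71 with the replicate number as a block, 128 without both dimmest arrays, 699 at 1.5-fold alone, and 117 to 188 leaving out 1 array. At 1.5-fold alone, 1 other Slco or Slc22 gene (Slco1a5) and 3 partner genes (Dio3, Pdzk1 and Slc15a2) were called, each by a probe not well above background on all 8 arrays, so these folds rest in part on values not above background. Differences reversed as follows. Alignment by the 75th percentile gave 0.0242 for Slco1a4 and 0.0523 for Slco4a1 A_55_P2929462. Normexp gave 0.0507 for that Slco4a1 probe and -0.0159 for Slc22a8. Cyclic loess gave -0.00892 for Slco5a1. Without both dimmest arrays Slco1a4 was 0.15 and Slco5a1 -0.18. Relative to the endothelial mean, added after the data were seen, Slco1a4 was 0.0281, Slco3a1 A_55_P1989663 0.00833 and Slco4a1 A_55_P2929462 0.0571. Leaving out 1 array gave -0.19 to 0.26 for Slco1a4, -0.17 to 0.13 for Slco4a1 A_55_P2929462, -0.19 to 0.13 for Slco5a1 and -0.23 to 0.35 for Slc22a6. The cause of the other reversals was not tested. Sample numbers did not pair the arrays, with correlations of -0.29, -0.69, 0.03 and 0.41 between arrays of the same number, and the replicate block changed no call of a transporter (Slco1c1 A_55_P2094831 adjusted p = 0.967). Low signal over background limits Slco2a1 and Slc22a6, which had no value where all 8 arrays had to be well above background.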
